A study of Homo sapiens with 3 samples.

Results

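The genes described here are 9 components of the transforming growth factor beta (TGF-beta) pathway, the ligands TGFB1, TGFB2 and INHBA, the receptors TGFBR1, TGFBR2 and TGFBR3, the intracellular mediators SMAD3 and SMAD7, and the target TGFBI. They were taken by gene symbol from a given list, chosen with earlier results of these data known, and all 9 of 9 were found among the 19220 genes of the count table. Their RNA was measured by RNA-seq in 3 libraries of CAL27, an established human oral squamous cell carcinoma (OSCC) line. The parental CAL27 library, labelled wild type, came from cells in drug-free medium. The CAL27/5FU library came from 5-fluorouracil-resistant cells kept in 10 µM 5FU, a pyrimidine analogue, and the CAL27/OXA library from oxaliplatin-resistant cells kept in 10 µM OXA, a platinum compound that binds DNA. All 3 were grown in high-glucose DMEM with fetal bovine serum. The 5FU-resistant cells were obtained by raising the drug dose stepwise over many months, and how the OXA-resistant cells were obtained is not given in the sources used here. Whether either resistant line is a clone is likewise not given. Resistance and the presence of the drug in the medium cannot be told apart, because each resistant line was sampled in its own drug only.

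TGF-beta ligands are secreted in a latent form and, once released, bind the type II receptor TGFBR2, which recruits and phosphorylates the type I receptor TGFBR1. The activated receptor phosphorylates SMAD2 and SMAD3, which enter the nucleus with SMAD4 and change transcription. In squamous epithelium the pathway is known both for holding back keratinocyte growth and for its part in epithelial-mesenchymal transition, and activins, built from the subunit that INHBA encodes, signal to the same SMADs through their own receptors.

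Each line was read from 1 library. The tables hold 3 further columns whose names mark them as possible second libraries of the same lines, but no sample label covers them and they were not used, so no replicate entered and no p-value was computed. A gene was counted as higher or lower when its ratio was past 2-fold, and the error of each ratio is a 95% interval by the exact Clopper-Pearson method, computed from both counts. These intervals treat each read as an independent molecule, which PCR copies are not, so they may be too narrow even for counting error. Whether a fragment could be counted more than once is not given in the sources used here. The intervals also leave out the spread between cultures. Levels are given as read counts, as CPM (counts relative to a library size scaled by trimmed mean of M-values, or TMM, factors) for comparing libraries, and as FPKM (fragments relative to gene length and library total) for comparing genes with each other. The libraries held 37297713 to 43455488 counts and 15275 to 15407 detected genes, and 1 count stood for 0.0225 to 0.0257 CPM. Of 7 squamous keratinocyte markers, 7 were at 1 FPKM or more in every library, with a summed level of 5312 FPKM in the parental library, 1375 FPKM in CAL27/5FU and 2169 FPKM in CAL27/OXA. Summed fibroblast markers reached 7.51, 11.9 and 14.9 FPKM in the same order, with COL1A1 and LUM at 1 FPKM or more in all 3 libraries, COL1A2 so in CAL27/5FU as well, and COL3A1 at 0 counts in all 3. Leukocyte markers summed to 9.74, 22.0 and 5.12 FPKM, with CD14 the sole marker at 1 FPKM or more. The 4 endothelial markers summed to 0.437, 2.29 and 1.06 FPKM, with CDH5 at 1 FPKM or more in CAL27/5FU alone. The part of these shifts in the ratios below was not tested. In bulk RNA, fewer cells of a kind and less RNA per cell cannot be told apart.

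Promoter windows are shown for TGFB2 and TGFBI, the genes whose counting interval lay wholly past 2-fold in a resistant line, and for TGFBR2, the most abundant of the 3 receptors. The windows are RefSeq sequences on GRCh38.p14, running from 250 bases before to 50 bases after the transcription start, on the plus strand of their chromosomes. TGFBR2 had 2 annotated windows, of which the downstream one is shown. Capitals mark matches, on either strand, to 7 motifs that were searched: CAGAC, the core of SMAD binding, the palindromic SMAD element GTCTAGAC, the AP-1 element TGANTCA, the cAMP response element TGACGTCA, its shortened form ACGTCA, which lies inside the longer one, the E-box CACGTG, and the TATA box TATAAA.
TGFB2, chr1:218345086-218345385, GRCh38.p14, plus strand: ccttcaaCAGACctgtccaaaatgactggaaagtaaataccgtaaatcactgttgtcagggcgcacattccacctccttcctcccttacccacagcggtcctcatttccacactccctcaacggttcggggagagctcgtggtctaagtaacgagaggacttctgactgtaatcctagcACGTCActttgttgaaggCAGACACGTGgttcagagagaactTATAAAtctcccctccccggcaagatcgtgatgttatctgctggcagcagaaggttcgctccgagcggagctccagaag
TGFBR2, chr3:30606351-30606650, GRCh38.p14, plus strand: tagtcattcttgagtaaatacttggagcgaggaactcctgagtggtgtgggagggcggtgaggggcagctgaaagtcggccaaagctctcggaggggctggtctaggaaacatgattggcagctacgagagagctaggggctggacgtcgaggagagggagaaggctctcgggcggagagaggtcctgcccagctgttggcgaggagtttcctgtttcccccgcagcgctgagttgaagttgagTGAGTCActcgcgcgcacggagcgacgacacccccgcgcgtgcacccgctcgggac
TGFBI, chr5:136028738-136029037, GRCh38.p14, plus strand: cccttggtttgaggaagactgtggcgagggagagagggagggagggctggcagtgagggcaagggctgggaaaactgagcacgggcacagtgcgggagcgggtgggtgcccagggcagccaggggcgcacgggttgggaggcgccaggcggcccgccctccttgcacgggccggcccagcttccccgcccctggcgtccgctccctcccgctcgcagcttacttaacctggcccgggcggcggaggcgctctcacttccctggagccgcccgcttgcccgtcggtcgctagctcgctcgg

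The TGFB2 window held CAGAC at 243 and at 53 bases before the start, ACGTCA at 71, CACGTG at 49 and TATAAA at 29 bases before it. The last base of the CAGAC at 53 is also the first base of the E-box, so those matches are printed as 1 run of capitals. The TGFBR2 window held TGANTCA at 6 bases before the start, and the TGFBI window held none of the 7 motifs. Among 34943 promoters of the same length, CAGAC was found in 45.3%, ACGTCA in 7.97%, TGANTCA in 7.72%, CACGTG in 7.23%, TATAAA in 11.6%, TGACGTCA in 1.84% and GTCTAGAC in 0.203%. GC content was 51.7% in the TGFB2 window, 61.7% in that of TGFBR2 and 72.7% in that of TGFBI, beside a mean of 57.5% over all promoters. The 9 genes had 23 annotated windows in all, and 11 of them held CAGAC while 0 held the palindromic element. A match is a description of letters and not of binding. The RefSeq start of TGFB2 lies 899 bases upstream of its gene start in GENCODE 29, so which start these cells used is not known from the counts.

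In CAL27/5FU against CAL27, 3 of the 9 genes were past 2-fold higher (TGFB2, TGFBR2 and TGFBR3) and 0 were past 2-fold lower, where 8.46% of the 13676 tested genes were higher and 6.72% lower. In CAL27/OXA against CAL27, 2 were higher (TGFB2 and TGFBR3) and 1 was lower (TGFBI), beside 6.54% and 9.28% of all tested genes. That excess of lower genes, 1269 against 894 higher, depended on the scaling, since total counts gave 1052 lower and 1100 higher. Setting CAL27/OXA against CAL27/5FU, 0 were higher and 2 were lower (TGFB2 and TGFBI), beside 4.18% and 8.38%. All 9 averaged 10 counts or more over the 3 libraries, which was the filter. Their median log2 ratio was 0.34 in CAL27/5FU and 0.36 in CAL27/OXA, where the medians of all tested genes were -0.0035 and 0.0055. Both resistant lines were set against the same CAL27 library, so their ratios are given side by side and no likeness is drawn from them.

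**Figure D1:**
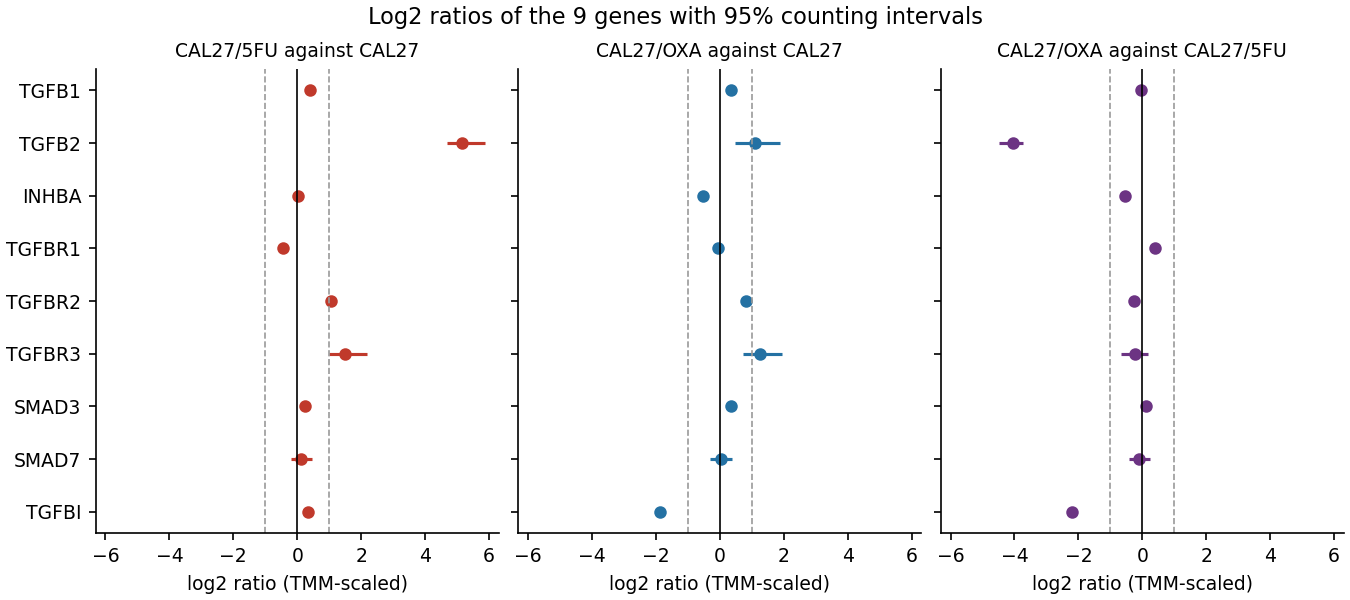
Log2 ratios of the 9 genes in the 3 comparisons, with bars for the exact 95% counting intervals and dashed lines at 2-fold. TGFB2 in CAL27/5FU stands at 5.14, far from every other value, and TGFBI is the gene that lies above 0 in CAL27/5FU (0.34) and past 2-fold below it in CAL27/OXA (-1.86).

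TGFB2 encodes a ligand that binds TGFBR2 well only with the help of the co-receptor TGFBR3. The gene lies at chr1:218346235-218444619 on the plus strand (GENCODE 29, GRCh38). It had 26 counts in the parental line, 988 in CAL27/5FU and 66 in CAL27/OXA, or 0.667 CPM (0.436 to 0.978), 25.2 CPM (23.7 to 26.9) and 1.49 CPM (1.15 to 1.89). CAL27/5FU stood far above both other libraries. The intervals of those libraries did not overlap each other either, but they take every count as independent and rest on 26 and 66 counts. The log2 ratio to CAL27 was 5.14 in CAL27/5FU (4.68 to 5.86), a 35.3-fold difference from 26 parental counts that ranked 17 from the highest of 13676 genes. On the log2(FPKM + pseudocount) scale it was 4.47 with a pseudocount of 0.1 and 2.30 with 1, past 2-fold in both. In CAL27/OXA the TMM-scaled log2 ratio was 1.10 (0.48 to 1.87), 2.14-fold, and rank 771. Its interval in CAL27/OXA reaches under 2-fold, and on the FPKM scale the value was 0.80 with a pseudocount of 0.1 and 0.18 with 1, so that call rests on low counts. Directly between the resistant lines, TGFB2 was 16.5-fold lower in CAL27/OXA (log2 ratio -4.04, -4.47 to -3.73). The exons of TGFB2-OT1, a transcript on the same strand that is no row of the count table, cover 1371 bases, or 26.6%, of the exonic bases of TGFB2, and reads of the pair cannot be told apart there.

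TGFB1 encodes the most widely expressed TGF-beta ligand and lies at chr19:41301587-41353911 on the minus strand. It had 1484 counts (38.1 CPM) in CAL27, 1975 (50.5 CPM) in CAL27/5FU and 2175 (49.0 CPM) in CAL27/OXA. Both resistant lines were above CAL27 by less than 2-fold, with log2 ratios of 0.41 (0.31 to 0.50) and 0.36 (0.27 to 0.46). Between the resistant lines the ratio was -0.04 (-0.13 to 0.05), an interval that includes 0. On the opposite strand, HNRNPUL1 overlaps 215 exonic bases of TGFB1 (6.64%), and the named library kit does not mark strand, so reads there cannot be assigned to either gene.

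INHBA encodes the activin A subunit and lies at chr7:41667168-41705834 on the minus strand. Its counts were 8918 in the parental line, 9058 in CAL27/5FU and 7035 in CAL27/OXA, which is 229, 231 and 158 CPM. The ratio in CAL27/5FU was 0.02 with an interval from -0.03 to 0.06. CAL27/OXA stood below both other libraries, at -0.53 (-0.58 to -0.49) to CAL27 and -0.55 (-0.59 to -0.50) to CAL27/5FU. All these ratios were within 2-fold. Under total counts the ratios to CAL27 were 0.19 in CAL27/5FU and -0.40 in CAL27/OXA, both outside the intervals given.

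Per length, TGFB1 made up most of the TGF-beta ligand RNA in every library. Its FPKM was 13.0 in the parental line, 19.3 in CAL27/5FU and 18.3 in CAL27/OXA, beside 0.104, 4.44 and 0.255 FPKM for TGFB2 and 1.26, 0.912 and 1.04 FPKM for TGFB3, a ligand outside the 9 genes. The sum over the 3 isoforms was 14.3, 24.7 and 19.6 FPKM. TGFB2 took 0.729% of that sum in the parental line, 18.0% in CAL27/5FU and 1.30% in CAL27/OXA. TGFB1 thus exceeded TGFB2 124-fold in the parental line, 4.35-fold in CAL27/5FU and 71.7-fold in CAL27/OXA. INHBA was above the summed TGF-beta ligands in all 3 libraries, by 2.46-fold, 1.62-fold and 1.36-fold.

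**Figure D2:**
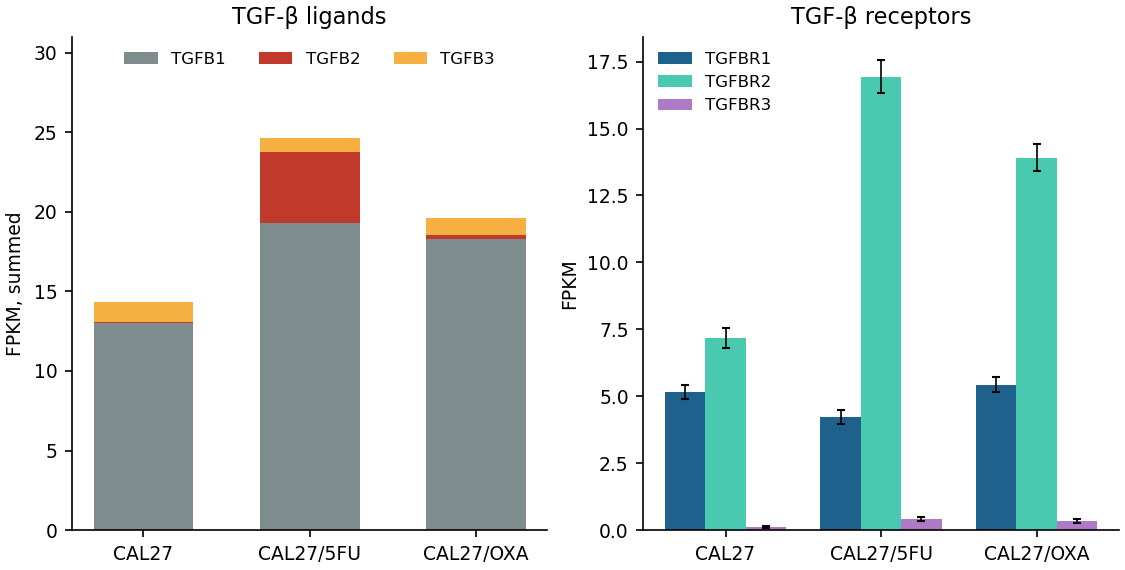
FPKM of the TGF-beta ligands (stacked, TGFB1, TGFB2 and TGFB3) and of the receptors TGFBR1, TGFBR2 and TGFBR3 in the 3 libraries, with 95% Poisson counting intervals on the receptors. TGFB2 is a visible share of the ligands in CAL27/5FU alone (18.0%), and TGFBR2 is above TGFBR1 in every library.

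TGFBR2, the ligand-binding type II receptor and a serine/threonine kinase, lies at chr3:30606502-30694142 on the plus strand. It had 1399 counts (35.9 CPM) in CAL27, 2948 (75.3 CPM) in CAL27/5FU and 2822 (63.5 CPM) in CAL27/OXA. Both resistant libraries were above the parental one, with intervals that did not overlap it. The log2 ratio was 1.07 in CAL27/5FU (0.98 to 1.16), 2.10-fold, and 0.82 in CAL27/OXA (0.73 to 0.92), 1.77-fold, so the 2-fold line falls inside the first interval and above the second. Between the resistant lines the ratio was -0.25 (-0.32 to -0.17).

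TGFBR1, the type I receptor kinase also called ALK5, lies at chr9:99104038-99154192 on the plus strand. It had 1388 counts (35.6 CPM) in CAL27, 1012 (25.9 CPM) in CAL27/5FU and 1520 (34.2 CPM) in CAL27/OXA. CAL27/5FU was the lowest library, at a log2 ratio of -0.46 (-0.58 to -0.34), the sole negative value among the 9 genes in that comparison. The ratio in CAL27/OXA was -0.06 (-0.16 to 0.05), and it became 0.07 under total-count scaling. Per length, TGFBR2 exceeded TGFBR1 by 1.39-fold in the parental line, 4.02-fold in CAL27/5FU and 2.56-fold in CAL27/OXA, so the receptor pair was less even in both resistant libraries.

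TGFBR3 (betaglycan), which presents ligand to TGFBR2, lies at chr1:91680343-91906335 on the minus strand and was near the bottom of the range. It had 33 counts (0.847 CPM) in CAL27, 98 (2.50 CPM) in CAL27/5FU and 94 (2.12 CPM) in CAL27/OXA. Both resistant libraries were above CAL27, at log2 ratios of 1.51 (0.98 to 2.18) and 1.27 (0.73 to 1.94), or 2.85-fold and 2.42-fold. Between them the ratio was -0.24 (-0.67 to 0.18). With FPKM and a pseudocount of 1, the ratios were 0.33 and 0.25 and neither was past 2-fold. TGFBR1 still exceeded TGFBR3 per length, by 41.8-fold in the parental line, 10.3-fold in CAL27/5FU and 16.1-fold in CAL27/OXA.

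SMAD3, a receptor-activated transcription factor, lies at chr15:67063763-67195195 on the plus strand. It had 10719 counts (275 CPM) in CAL27, 12745 (326 CPM) in CAL27/5FU and 15723 (354 CPM) in CAL27/OXA. CAL27 was the lowest and CAL27/OXA the highest library, with log2 ratios of 0.24 (0.21 to 0.28) and 0.36 (0.33 to 0.40), both within 2-fold. An antisense gene, AC087482.1, overlaps 182 exonic bases (2.0%). SMAD2, its partner, was at 3.69, 4.38 and 4.81 FPKM, and SMAD3 exceeded it per length by 11.8-fold, 13.3-fold and 12.8-fold.

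SMAD7, an inhibitory SMAD that TGF-beta itself induces and that blocks TGFBR1, lies at chr18:48919853-48952052 on the minus strand. Its counts of 141 in the parental line, 155 in CAL27/5FU and 165 in CAL27/OXA gave 3.62, 3.96 and 3.71 CPM. The 3 libraries were not separable by counting error, with log2 ratios of 0.13 (-0.21 to 0.47) and 0.04 (-0.30 to 0.37). SMAD3 exceeded SMAD7 by 35.1-fold, 38.0-fold and 44.0-fold per length.

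TGFBI encodes a secreted matrix protein that binds integrins and was named for its induction by TGF-beta. It lies at chr5:136028895-136063818 on the plus strand. It had 12846 counts (329.8 CPM) in CAL27, 16361 (418 CPM) in CAL27/5FU and 4046 (91.1 CPM) in CAL27/OXA. CAL27/5FU was the highest library and CAL27/OXA the lowest, with no overlap of intervals. The log2 ratio was 0.34 in CAL27/5FU (0.31 to 0.38), 1.27-fold, and -1.86 in CAL27/OXA (-1.91 to -1.81), 3.62-fold lower and rank 477 from the lowest of 13676 genes. Against CAL27/5FU, CAL27/OXA was 4.59-fold lower (-2.20, -2.25 to -2.15), rank 275 from the lowest.

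**Figure D3:**
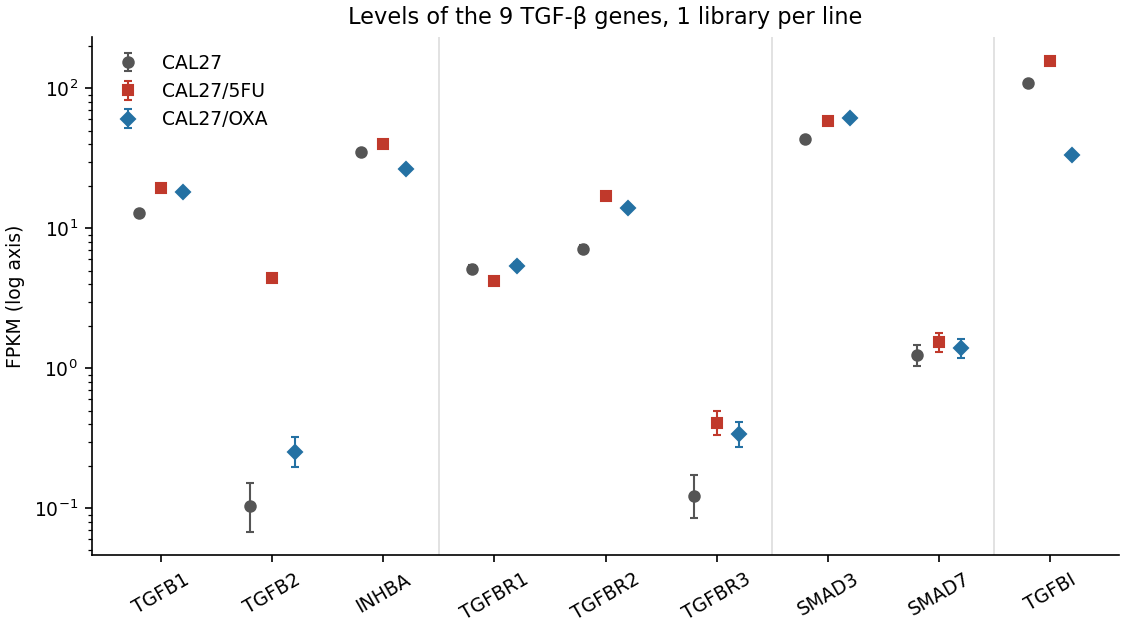
FPKM of each of the 9 genes in the 3 libraries on a log axis, with 95% Poisson counting intervals. TGFB2 is at 0.104 FPKM in CAL27 and 4.44 FPKM in CAL27/5FU, and TGFBI is at 109.6 FPKM in CAL27 and 33.2 FPKM in CAL27/OXA.

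Ordered by FPKM, TGFBI led in CAL27 at 109.6, ahead of SMAD3 at 43.7 and INHBA at 35.2, with TGFB1, TGFBR2, TGFBR1 and SMAD7 following. TGFBR3 at 0.123 and TGFB2 at 0.104 FPKM came last, and their intervals overlapped. In CAL27/5FU the order of the upper 5 was as in CAL27, with TGFBI at 156 and SMAD3 at 58.2 FPKM. TGFB2 at 4.44 and TGFBR1 at 4.21 FPKM shared the place below TGFBR2 with overlapping intervals, and TGFBR3 was last at 0.410. In CAL27/OXA, SMAD3 at 61.6 FPKM stood above TGFBI at 33.2 and INHBA at 26.7. TGFBR3 at 0.337 and TGFB2 at 0.255 FPKM were again last with overlapping intervals.

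Beyond the 9 genes, 8 lists of pathway genes were counted, which held 109 further genes, of which 76 were tested. In CAL27/5FU 14 of the 76 (18.4%) were past 2-fold higher and 9 (11.8%) lower, beside 8.46% and 6.72% of all tested genes. The median log2 ratio of the 76 was 0.12. In CAL27/OXA 10 (13.2%) were higher and 13 (17.1%) lower, beside 6.54% and 9.28%, with a median of -0.13, which was 0.0 under total-count scaling. Setting CAL27/OXA against CAL27/5FU, 3 (3.95%) were higher and 14 (18.4%) lower, beside 4.18% and 8.38%. The lists were written with earlier results known and overlap in part, and nothing particular to them is drawn from these counts.

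**Figure D4:**
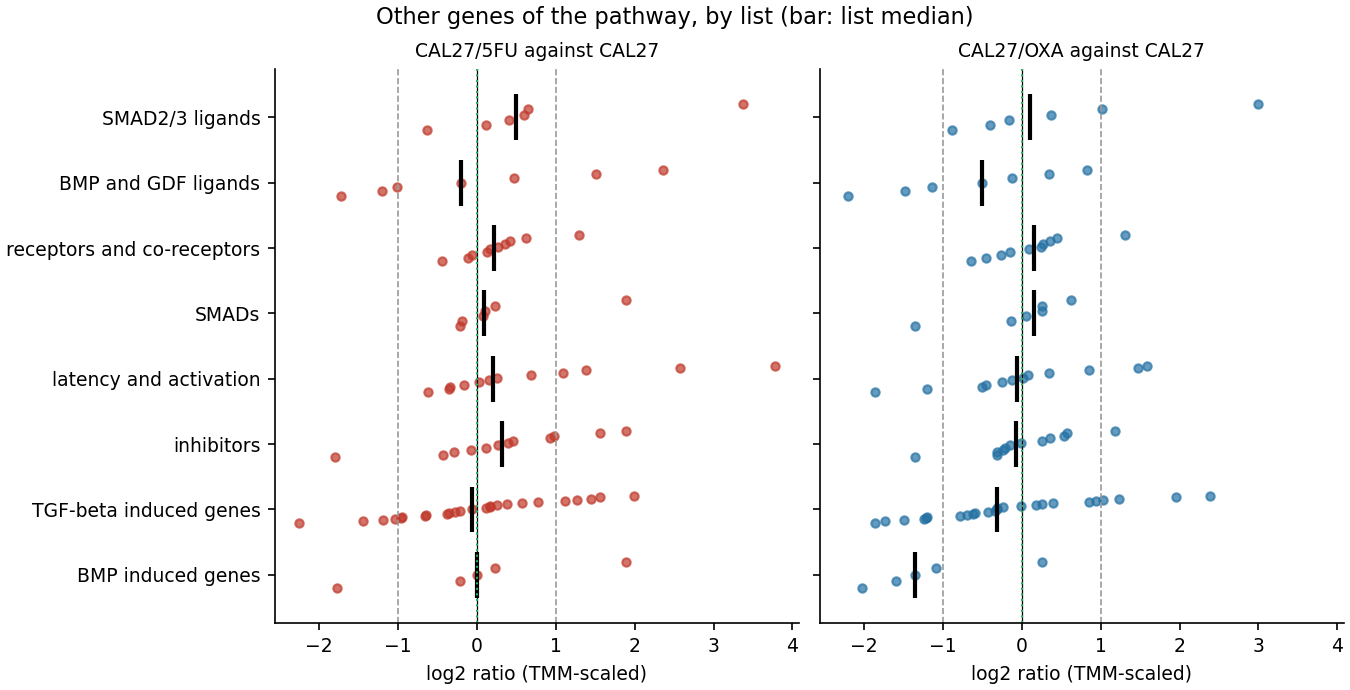
Log2 ratios of the tested genes of the 8 pathway lists, without the 9 genes themselves, in the resistant lines against CAL27, with dashed lines at 2-fold and a dotted line at the median of all tested genes. The BMP induced genes lie lowest in CAL27/OXA, with a median of -1.36 over 5 genes, which is the value of SMAD6 (-3.86 to -0.05). The median was -1.09 over 3 genes at a mean of 50 counts, and -0.95 and -0.34 with FPKM and pseudocounts of 0.1 and 1.

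The regulators of ligand latency and release included 4 of 12 tested genes past 2-fold higher in CAL27/5FU (33.3%, beside 8.46% of all tested genes) and 0 lower (beside 6.72%), and 2 higher and 2 lower in CAL27/OXA (16.7% each, beside 6.54% and 9.28%). With the whole interval past 2-fold, 3 were higher in CAL27/5FU, and 0 higher and 2 lower in CAL27/OXA. With FPKM and a pseudocount of 1, 2 were higher in CAL27/5FU, and 0 higher and 1 lower in CAL27/OXA. FBN1, a microfibril protein that holds latent TGF-beta complexes, had 18, 273 and 66 counts in CAL27, CAL27/5FU and CAL27/OXA. Its log2 ratios were 3.78 (3.23 to 4.69) and 1.59 (0.92 to 2.52), from a low parental count. THBS1, a matrix protein known to release active TGF-beta, had 5936, 35384 and 12242 counts and ratios of 2.57 and 0.85. LTBP3, a latent TGF-beta binding protein, had ratios of 1.09 and 0.01. ITGB6, the subunit of the integrin that activates latent TGF-beta in epithelia, had 6309, 4928 and 1975 counts, with ratios of -0.36 and -1.86 (-1.94 to -1.79). LTBP2 had ratios of 0.25 and -1.20.

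Among the inhibitors, 2 of 12 were higher and 1 lower in CAL27/5FU (16.7% and 8.33%, beside 8.46% and 6.72% of all tested genes), and 4 were higher there under total counts. In CAL27/OXA 1 was higher and 1 lower (8.33% each, beside 6.54% and 9.28%), shares near those of all genes. FST, follistatin, which traps activins, had 3512, 1011 and 3226 counts, with ratios of -1.80 in CAL27/5FU and -0.31 in CAL27/OXA. PMEPA1, a TGF-beta induced gene that dampens SMAD signalling, had ratios of 1.56 and -0.01. SMURF2, a ubiquitin ligase that targets the receptors, had ratios of 0.93 and 1.18.

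Of 25 further TGF-beta induced genes, 5 were higher and 4 lower in CAL27/5FU (20.0% and 16.0%, beside 8.46% and 6.72% of all tested genes), and 4 higher and 6 lower in CAL27/OXA (16.0% and 24.0%, beside 6.54% and 9.28%). The medians were -0.06 and -0.32, and the first was 0.11 under total-count scaling. CTGF, a matricellular protein, had 226, 907 and 1004 counts, with ratios of 1.99 and 1.95. PTHLH, a parathyroid hormone-like secreted factor, had ratios of -2.26 and -1.73, and CDKN2B, the cyclin-dependent kinase inhibitor p15, had -1.19 and -1.50. Genes of this list thus lay past 2-fold on either side of 0 in both lines.

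Of the 5 tested BMP induced genes, 1 was higher and 1 lower in CAL27/5FU (20.0% each, beside 8.46% and 6.72% of all tested genes), and 4 were lower and 0 higher in CAL27/OXA (beside 9.28% and 6.54%). Of those 4, ID2 (20, 17 and 4 counts) and SMAD6 (12, 50 and 4 counts) were calls on low counts. The 4 lower became 2 at a mean of 50 counts, 2 with the whole interval past 2-fold and 1 with FPKM and a pseudocount of 1. ID1, an inhibitor of differentiation, had 6544, 6577 and 3516 counts, with ratios of 0.0 and -1.09, and ID3 had ratios of -1.77 and -1.59. Among the 7 tested BMP and GDF ligands, 2 were higher and 3 lower in CAL27/5FU (28.6% and 42.9%, beside 8.46% and 6.72% of all tested genes). In CAL27/OXA 0 were higher (beside 6.54%) and 3 lower (42.9%, beside 9.28%). The 3 lower became 2 in CAL27/5FU and 1 in CAL27/OXA at a mean of 50 counts. With FPKM and a pseudocount of 0.1 or 1 they became 1 in each line. BMP4 had 42, 225 and 87 counts with ratios of 2.36 and 0.83, BMP2 had 1569, 477 and 640 with -1.72 and -1.48, and GDF15, a stress-induced ligand, had 1115, 3186 and 1166 with 1.51 and -0.12. Of 6 other SMAD2/3 ligands, 1 was higher in CAL27/5FU (16.7%, beside 8.46% of all tested genes), which was INHBE. In CAL27/OXA 2 were higher (33.3%, beside 6.54%), INHBE and GDF11. INHBE had 5, 70 and 61 counts with ratios of 3.37 and 3.0, from a low parental count. GDF11 had ratios of 0.59 and 1.02. Of 10 other receptors and co-receptors, 1 was higher in each line (10.0%, beside 8.46% and 6.54%), a share near that of all genes. It was the BMP co-receptor RGMB at 1.29 and 1.31. Of 6 other SMADs, 1 was higher in CAL27/5FU (16.7%, beside 8.46%) and 1 lower in CAL27/OXA (16.7%, beside 9.28%), which was SMAD6 both times.

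The 10 nearest tested genes on the chromosome were set beside each gene. Around TGFB2 their median log2 ratio was 0.33 in CAL27/5FU, ranging from -0.26 to 1.02, and 0.07 in CAL27/OXA, so none of them came near the 5.14 of TGFB2. Around TGFBI the median was -0.01 in CAL27/5FU (0.16 under total counts) and 0.63 in CAL27/OXA, with a lowest value of -1.05 beside the -1.86 of TGFBI. Around TGFBR2 the medians were 0.17 and 0.14, with highest values of 1.96 and 1.45, above the 1.07 and 0.82 of TGFBR2. Around TGFBR3 they were 0.25 and 0.22, with highest values of 2.19 and 1.39, above the 1.51 and 1.27 of TGFBR3. Of the 10 neighbours of TGFBR3, 2 were past 2-fold higher in each line, beside 8.46% and 6.54% of all tested genes. INHBA and SMAD3 also had 2 such neighbours each in CAL27/5FU, and 0 and 1 in CAL27/OXA. Neighbours of TGFB1 had medians of -0.33 and -0.35, opposite in sign to TGFB1. Among them 1 was past 2-fold higher in each line. Past 2-fold lower were 1 in CAL27/5FU and 3 in CAL27/OXA, beside 6.72% and 9.28% of all tested genes. SMAD3 had 0 and 2 lower neighbours, and INHBA and TGFBI had 0 and 1 each.

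**Figure D5:**
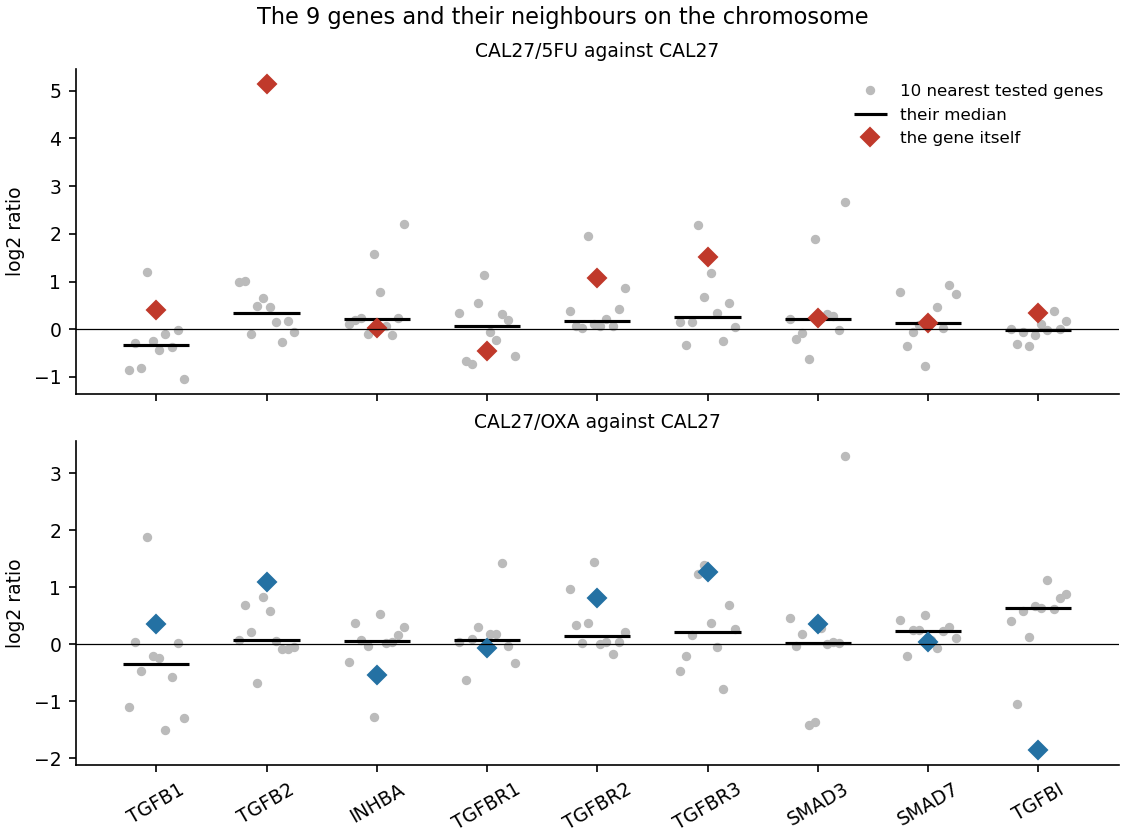
Log2 ratios of each of the 9 genes (diamonds) and of its 10 nearest tested genes on the chromosome (grey, with a bar at their median) in the resistant lines against CAL27. TGFB2 in CAL27/5FU lies above all of its neighbours, and TGFBI in CAL27/OXA lies below all of its own.

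The genes whose pair of ratios lay nearest by Euclidean distance were sought among the 11541 tested genes that averaged 100 counts or more. For TGFB2 these were DOCK10, at a distance of 0.99 with 8, 351 and 10 counts, and FBN1, at 1.40. For TGFBR2 they were ENTPD1 (0.010) and HLA-F (0.021), for TGFBR3 GPR161 (0.046) and LAMB1 (0.089), and for TGFBI ZSWIM5 (0.068) and CFB (0.12). CFB, complement factor B, had 21296, 25272 and 6991 counts and ratios of 0.24 and -1.80. These distances rest on 3 libraries and describe the ratios alone.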

How the data were processed

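Per the labels, total RNA was isolated with TRIzol and libraries were made with a NEBNext Ultra RNA kit. Novogene carried out library preparation and data analysis, with sequencing on an Illumina platform, which the study's methods state for CAL27 and CAL27/5FU. The submitters' processing notes name CASAVA 1.8, HISAT2 2.0.5 and GRCh38. The counting tool, the annotation and the strand setting are not given in the sources used here. The authors deposited raw read counts per gene symbol (19220 genes) and, separately, FPKM values (19225 genes), which are relative to gene length and library total. Each table also has 3 per-sample columns, named as possible second libraries of the same lines, that no sample label covers, and these were left out of every step. Tables were read for 1 library per line, so the depth of 37297713 to 43455488 counts limits precision and the spread between cultures is unknown.

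Counts were scaled with TMM factors (edgeR 4.0.16 in R 4.3.3; 0.932, 1.05 and 1.02) and log2 CPM was taken with 2 as the prior count. The 13676 genes averaging 10 counts or more were tested, and past 2-fold was the call. Count pairs have exact 95% Clopper-Pearson intervals and levels exact Poisson intervals (scipy 1.17.1), both taking each count as independent. The computation of the ratios was tested on simulated data that held counting error alone, so it says nothing of the spread between cultures. Gene positions are from GENCODE 29 and promoters from RefSeq. Motifs were matched by letters on both strands.

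The 9 genes and the 8 lists were chosen with earlier results of these data known, and the lists were written from general knowledge of the pathway. All 9 genes are named, with, per list and comparison, at most 4 genes past 2-fold that averaged 100 counts or more, and for each of the 9 past 2-fold in a resistant line the 2 nearest genes by their ratios. Not every gene that this rule names is reported here. SMAD6, ID2, INHBE, TGFB3 and SMAD2 were named outside this rule, after their values were seen. As alternatives, counts were scaled by the upper quartile, by total counts or by size factors from DESeq2 1.42.0, the filter was dropped or raised to a mean of 50 counts, 0.5 and 5 served as prior counts, and ratios were taken from FPKM with pseudocounts of 1 and 0.1. Calls were also made past 4-fold and with the whole interval past 2-fold. The lists under these alternatives and the neighbours under total counts were added after the data were seen.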

Additional observations from a re-analysis of the deposited data

Results flagged for a closer look

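TGFBI stood on opposite sides of CAL27 in the resistant lines. Its log2 ratio was 0.34 in CAL27/5FU (0.31 to 0.38) and -1.86 in CAL27/OXA (-1.91 to -1.81), from 12846, 16361 and 4046 counts in CAL27, CAL27/5FU and CAL27/OXA. Both counting intervals lie away from 0, but with 1 library per line the difference between the lines was not tested against the spread between cultures.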

How the results depend on the processing

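No paired analysis was possible because 1 library per line was used, the 3 columns without a sample label being left out, and for the same reason no library could be dropped in turn. Of 243 ratios of the 9 genes under alternatives, 196 lay inside the counting interval of the reported ratio, 47 lay outside it and 0 reversed a called direction. Dropping or raising the filter cannot change a ratio, so all ratios under those settings are among the 196 by construction. TGFBR1 in CAL27/OXA, which was not called, went from -0.06 to 0.07 under total counts. In CAL27/5FU, INHBA ranged from 0.02 to 0.19, SMAD3 from 0.24 to 0.41 and TGFBR1 from -0.46 to -0.24, in part outside their intervals. TGFB2 in CAL27/5FU ranged from 2.30 to 5.31, TGFBR2 in CAL27/5FU from 1.07 to 1.24, TGFBI in CAL27/OXA from -1.86 to -1.69, and TGFB2 in CAL27/OXA against CAL27/5FU from -4.08 to -2.12. Of the 3 genes higher in CAL27/5FU, 1 (TGFB2) remained past 4-fold and 1 (TGFB2) with the whole interval past 2-fold. Of the 2 higher in CAL27/OXA, 0 remained with FPKM and a pseudocount of 1 or 0.1, past 4-fold, or with the whole interval, and of the 1 lower (TGFBI), 0 remained past 4-fold. Over all tested genes, 2076 were past 2-fold in CAL27/5FU, 2163 in CAL27/OXA and 1717 in CAL27/OXA against CAL27/5FU. Without the filter these were 3454, 3273 and 2842, with FPKM and a pseudocount of 1 they were 814, 849 and 602, past 4-fold 690, 708 and 519, and with the whole interval 1342, 1390 and 1028. Total counts shifted the median of all genes by 0.17 in CAL27/5FU and 0.14 in CAL27/OXA. They moved the split of CAL27/5FU from 1157 higher and 919 lower to 1432 and 699, and that of CAL27/OXA from 894 and 1269 to 1100 and 1052. With FPKM and a pseudocount of 0.1 the split was 1168 and 613 in CAL27/5FU and 884 and 909 in CAL27/OXA. The cause of these changes was not tested. Low counts limit TGFB2 in CAL27 and CAL27/OXA, TGFBR3 and SMAD7 most.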

Other observations

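Among the listed pathway genes under the filter, NOG, a secreted BMP antagonist, had 10 counts in CAL27/5FU and 0 counts in both other libraries. It was chosen after its values were seen. A floor of 3 counts was set for reading a count of 0, but the ratio intervals do not use this fixed setting. The log2 ratio of NOG in CAL27/5FU to CAL27 was 2.64. Its exact interval starts at 1.16 and has no upper limit, because the parental count was 0.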
